A study of Mus musculus with 5 samples.

Results

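The RNA-binding regulators Rbfox1, Rbfox2, Rbfox3, Celf4 and Elavl2 are described here as targets of alternative splicing after knockdown of PQBP1 in mouse cortical neurons. The 5 genes were chosen by name from the authors' deposited table of splicing targets, and all of their junctions were taken: 17 of 1402 junctions, in 6 of 585 events, from 5 of 457 genes. Every event in that table has at least 1 junction with a deposited p under 0.05, so the p-values and folds of these genes chose them and are given as a description. The cells were neurons dissected from C57BL/6 cortices of E16.5 embryos and kept to day 5 in vitro. Both groups received lentivirus, which carried an shRNA against PQBP1 in the 2 samples of the PQBP1 knockdown and a non-targeting shRNA in the 3 samples of the mock knockdown. The table gives 1 comparison of those groups and no value for a single sample, so no spread between replicates, depth or gene level can be given for any gene below. Pqbp1 itself has 0 events in it, and neither its knockdown nor markers of neurons can be checked from junction folds.

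PQBP1 is a nuclear protein that binds spliceosome components and RNA polymerase II. RBFOX proteins bind the RNA element UGCAUG through a single RNA recognition motif and promote or repress neighbouring exons according to its position. Rbfox1, Rbfox2 and Rbfox3 are paralogs, Rbfox3 is the antigen NeuN used to mark mature neurons, and their own transcripts are heavily spliced. CELF proteins bind UG-rich and ELAVL (Hu) proteins U-rich RNA through several such motifs, and both families act in the nucleus on splicing and in the cytoplasm on stability and translation. Celf4 and Elavl2 are the brain-enriched members described here.

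The sequences below are annotated exons at or near the sites of the Elavl2 and RBFOX events, read from GENCODE M21 transcripts on mm10. In Elavl2 the exon shown in capitals is kept or skipped between the neighbouring coding exons, of which the last and first 30 bases are given (minus strand, chr4:91260761-91260790, chr4:91254141-91254179 and chr4:91253538-91253567).
Elavl2 end of the upstream exon: accgctagctcagcaggcacagcgttttag
Elavl2 exon of 39 nt: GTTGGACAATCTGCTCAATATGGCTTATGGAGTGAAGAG
Elavl2 start of the downstream exon: gttttctccaatgacgatcgatggaatgac

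For Rbfox3 the shared exon of 79 nt is shown with the coding bases that the nearer last exon adds, its stop codon in capitals (minus strand, chr11:118494150-118494228 and chr11:118492594-118492638).
Rbfox3 shared exon: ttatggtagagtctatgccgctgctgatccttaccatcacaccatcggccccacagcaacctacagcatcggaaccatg
Rbfox3 coding end of the nearer last exon: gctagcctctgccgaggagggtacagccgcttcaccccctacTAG

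The Rbfox1 event starts at the donor of an exon of 93 nt inside the RNA recognition motif, which has a counterpart of equal length in each paralog. Capitals mark the bases of Rbfox2 and Rbfox3 that differ from Rbfox1 (chr16:7292185-7292277, plus strand; chr15:77105577-77105669 and chr11:118502842-118502934, minus strand). Of the 93 bases, 86 (92.5%) are identical in Rbfox2 and 69 (74.2%) in Rbfox3.
Rbfox1: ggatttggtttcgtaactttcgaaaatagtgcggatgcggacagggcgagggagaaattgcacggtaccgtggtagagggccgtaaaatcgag
Rbfox2: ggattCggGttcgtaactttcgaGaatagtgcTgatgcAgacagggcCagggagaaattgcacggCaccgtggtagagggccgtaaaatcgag
Rbfox3: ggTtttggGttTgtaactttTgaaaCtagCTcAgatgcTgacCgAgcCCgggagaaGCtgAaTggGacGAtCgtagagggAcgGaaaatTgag

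The Rbfox2 event starts further downstream, before the alternative exons of 40 and 43 nt that are known as the brain and the muscle form of the C-terminal region. They are shown because their junctions share a donor with the higher one, and their own p-values missed the threshold (minus strand, chr15:77094451-77094490 and chr15:77091812-77091854). Exons of 40 nt in Rbfox1 (plus strand, chr16:7363865-7363904) and Rbfox3 (minus strand, chr11:118496351-118496390) are identical to the Rbfox2 exon at 34 and 31 of 40 bases, and capitals mark the bases that differ from it.
Rbfox2 exon of 40 nt: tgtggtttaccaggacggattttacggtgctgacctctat
Rbfox1 exon of 40 nt: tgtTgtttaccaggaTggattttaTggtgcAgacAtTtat
Rbfox3 exon of 40 nt: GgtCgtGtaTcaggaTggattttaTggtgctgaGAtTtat
Rbfox2 exon of 43 nt: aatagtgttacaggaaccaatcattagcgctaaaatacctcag

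In each of the RBFOX genes the junction with the largest fold was higher after knockdown and was the nearest of its event. That junction led to a last exon of Rbfox3, and to unannotated acceptors in Rbfox1 and Rbfox2. Among all 408 events with 2 junctions the nearer one was higher in 42.9%, and no such share was computed for larger events like that of Rbfox2. Their shared direction comes from the contrast that chose the genes and is not read as a trait of the family. In Elavl2 the 39 nt exon was included more. In Celf4 an exon of the 3' UTR was included less, and skipping of an inner coding exon was higher. Over the 6 events, 10 of 17 junctions had a deposited p under 0.05, against 76.2% of the 1389 junctions of the table that carry a p. Junctions of an event share reads and in a 2-junction event share the p, so they are not separate pieces of evidence. The smallest p of an event was under 0.01 in 1 of the 6, against 25.6% of all events. These counts use the contrast that chose the genes, and nothing is read from them.

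**Figure D1:**
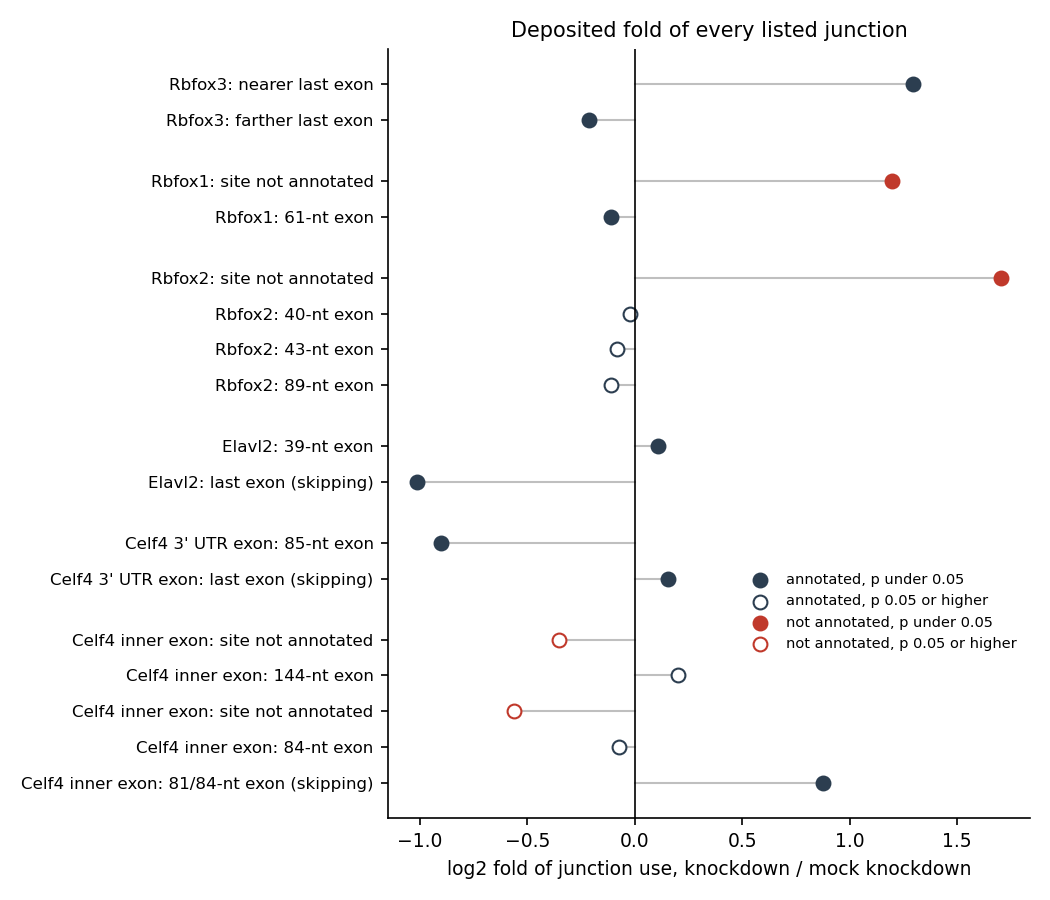
Deposited log2 fold of junction use, knockdown over mock knockdown (x axis), for the 17 junctions of the 6 events (rows, nearest junction first); filled points have a deposited p under 0.05 and red points an intron absent from the gene models. In the Rbfox2 row set 1 red point stands at 1.70 and the 3 others lie between -0.11 and -0.02.

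Rbfox3 had the smallest p of the 5 genes, and its event is a choice between acceptors of the last exon. From the donor of the 79 nt exon, the junction to the nearer acceptor at 118492638 on chromosome 11 had a log2 fold of 1.30 in the authors' deposited table, and that to the farther one at 118491241 a fold of -0.21 (p = 0.00485 for each). The nearer junction thus gained on the farther one 2.84-fold, a change of 1.51 in the log2 ratio. The acceptors lie 1397 bases apart. Of the 10 annotated Rbfox3 transcripts, 2 use the nearer and 4 the farther one.

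The choice changes the C-terminus of the Rbfox3 protein. On the farther acceptor the first 3 bases of the last exon are the stop codon. The nearer acceptor adds 42 coding bases, or 14 codons, before its own stop, as in transcript Rbfox3-201 with 374 codons against 360 in Rbfox3-205. Of the annotated last exons that start at the nearer acceptor, 1 of 1484 nt runs past the farther acceptor and the other, of 645 nt, ends before it. The event can therefore be read as an alternative 3' splice site or as an alternative last exon, which junction reads alone do not separate.

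If the junctions of a 2-junction event are taken to make up all of its use, their folds fix the share of each. The less used junction then has the larger fold by construction, as in all 4 such events of these genes. On that reading the nearer Rbfox3 last exon went from 8.56% of use in the mock knockdown to 21.0% in the knockdown, a difference of 12.5 percentage points. On the same reading the junction that gives the shorter C-terminus was the more used one in both groups, and protein was not measured. No error can be attached to such implied shares, since the table holds neither counts nor replicate values.

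**Figure D2:**
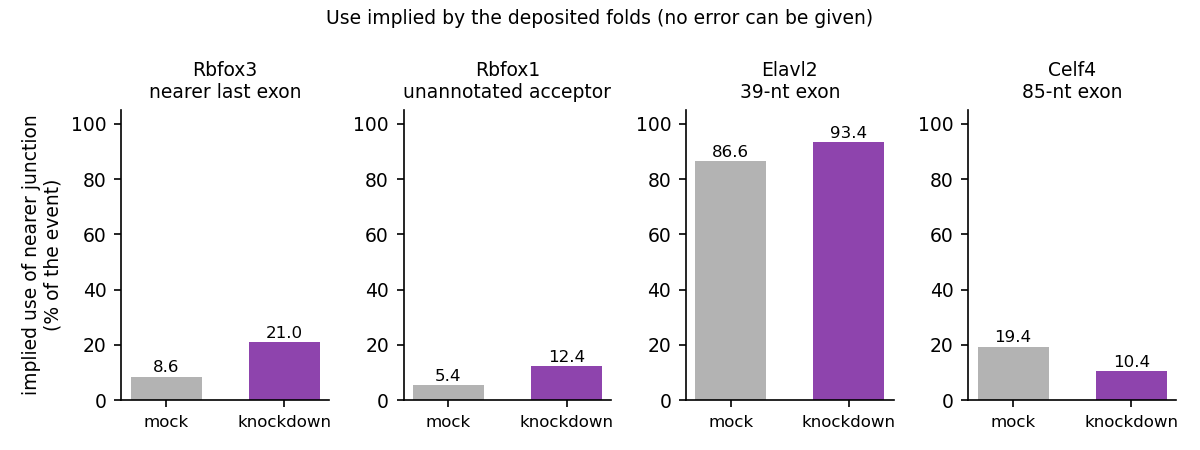
Implied use of the nearer junction (y axis, percent of the event) in the mock knockdown (grey) and the knockdown (purple) for the 4 events with 2 junctions, computed from the deposited folds and shown without error bars because none can be given. The nearer junction is the minor one in Rbfox3, Rbfox1 and Celf4 (8.56%, 5.39% and 19.4% in the mock knockdown) and the major one in Elavl2 (86.6%).

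Rbfox1 and Rbfox2 each have a junction that runs from a coding exon to an acceptor absent from the gene models, and in both it was higher after knockdown. In Rbfox1 the donor belongs to the 93 nt exon, which encodes part of the RNA recognition motif and is present in 6 of 8 annotated transcripts. The junction to an acceptor at 7292539, at the end of an intron of 261 bases, had a log2 fold of 1.20 in the authors' deposited table, and the annotated junction to the exon of 61 nt at 7294070 had -0.11 (p = 0.0200 for each). The ratio was 2.48 times the mock ratio, or 1.31 on the log2 scale. The implied use of the unannotated acceptor was 5.39% in the mock knockdown and 12.4% in the knockdown, so the annotated junction stayed the main one in both groups.

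In Rbfox2 the shared donor ends an exon of 133 nt (145 nt in other transcripts) downstream of the RNA recognition motif. Its junction to an unannotated acceptor at 77096893, at the end of an intron of 1046 bases, had a log2 fold of 1.70 in the authors' deposited table (p = 0.0337). That is 3.25 times the use in the mock knockdown, and the largest absolute fold among the 17 junctions. The annotated alternatives from the same donor differed little: the 40 nt brain exon had a log2 fold of -0.02 (p = 0.715), the 43 nt muscle exon -0.08 (p = 0.900) and the 89 nt exon, which skips both, -0.11 (p = 0.676), all in the authors' deposited table. The p-values of those 3 junctions missed the threshold, which does not show that the brain and muscle exons kept their shares.

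If the 4 uses add up to the whole in each group, the other folds of 0.925 to 0.983 times leave the unannotated junction between 0.735% and 3.20% of use in the mock knockdown and between 2.39% and 10.4% in the knockdown. Skipping of both annotated exons also changes the reading frame. The transcripts with the 40 or the 43 nt exon share a stop codon at 77084162 to 77084164, whereas Rbfox2-201, which has neither, stops at 77084152 to 77084154 and Rbfox2-202 at a codon split between 77085579 and 77082271. Where the exons behind the unannotated Rbfox1 and Rbfox2 acceptors end, and whether they keep the frame, was not analysed here, because the table lists these events from the donor side only.

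**Figure D3:**
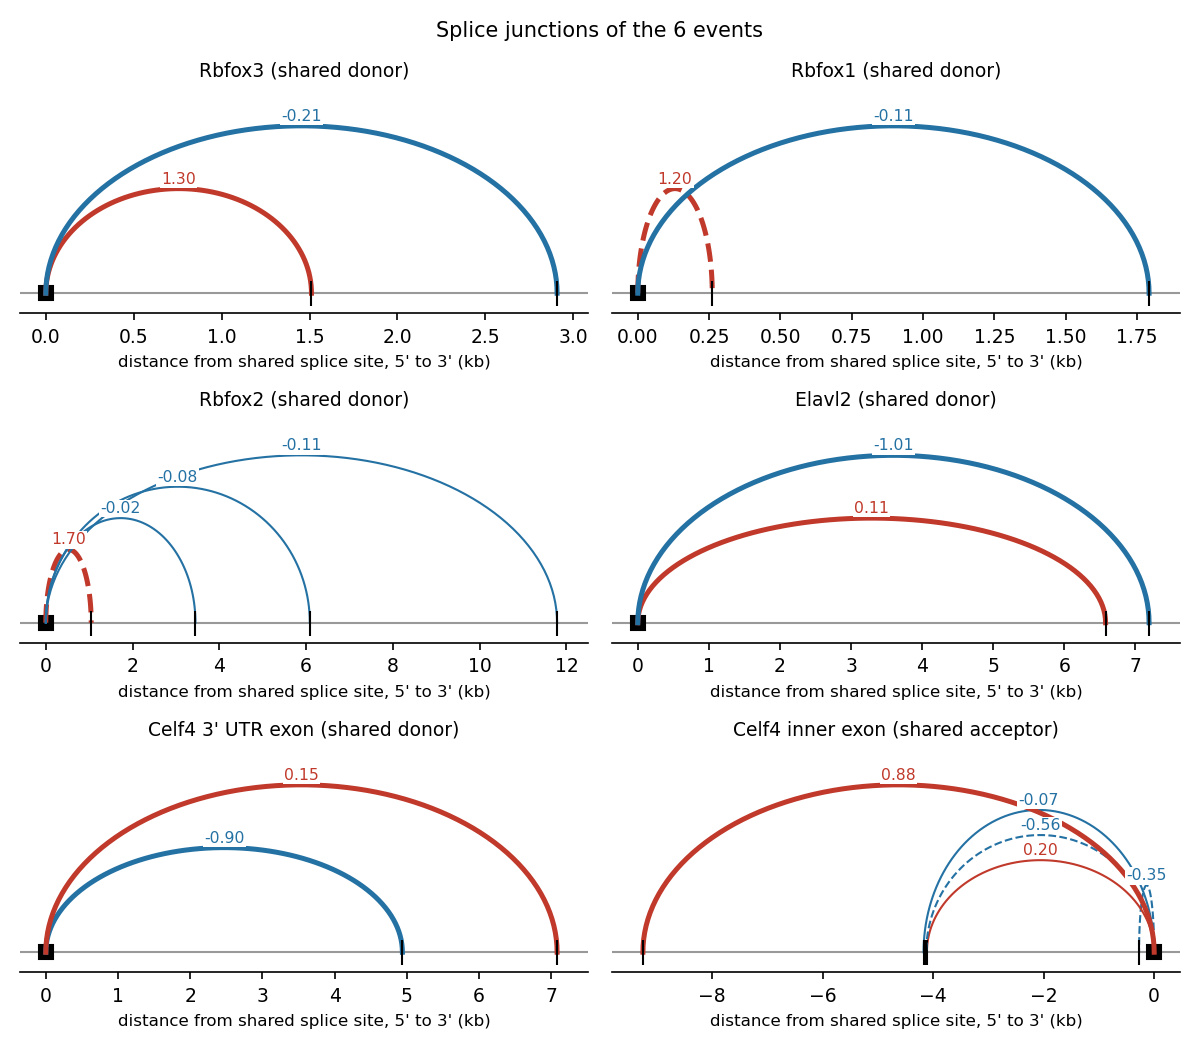
Splice junctions of the 6 events as arcs (x axis, distance in kb from the shared splice site, black square, along the transcript; arc height has no meaning), each with its deposited log2 fold; red is higher and blue lower in the knockdown, thick lines have a deposited p under 0.05 and dashed introns are not annotated. In Rbfox1 and Rbfox2 the dashed arc is the nearest and the one with the largest fold (1.20 and 1.70).

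Unannotated junctions were not of 1 direction elsewhere in the table. Of the 17 junctions 4 have no annotated intron, against 15.9% of all junctions. Among junctions of the whole table with a deposited p under 0.05 and an unannotated alternative site, 42.4% of 66 were higher after knockdown. Both of those in the genes described here, in Rbfox1 and Rbfox2, were higher. The other 2 unannotated junctions are in Celf4 and had folds below 0 with p above the threshold.

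In Elavl2 a coding exon was included more. The 39 nt exon on chromosome 4 lies in the linker between the second and the third RNA recognition motif, a segment of Hu proteins known for alternative splicing and for a role in movement between nucleus and cytoplasm. Its length is a multiple of 3 and it adds 13 codons, as in Elavl2-203 with 359 codons against 346 in Elavl2-205. In the authors' deposited table inclusion stood at a log2 fold of 0.11 and skipping at -1.01 (p = 0.0346 for each).

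The inclusion ratio of Elavl2 was 2.17 times the mock ratio (1.12 on the log2 scale), while the implied inclusion went from 86.6% to 93.4%, or 6.73 percentage points. Of 16 annotated Elavl2 transcripts 6 hold the exon. Among the 44 cassette exons of the table that are 28 to 60 nt long, each counted once, 17 including that of Elavl2 were included more and 27 less.

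Celf4 was the only one of the 5 genes with more than 1 event, and both sit around the exon of 172 nt that carries its stop codon. Downstream of it, an exon of 85 nt on chromosome 18 (25481770 to 25481854) can be spliced in before the last exon. In the authors' deposited table the junction into this exon stood at a log2 fold of -0.90 and the one past it at 0.15 (p = 0.0408 for each). Inclusion relative to skipping changed 0.482-fold, or by -1.05 on the log2 scale, and the implied inclusion was 19.4% in the mock knockdown and 10.4% in the knockdown.

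The 85 nt exon lies wholly in the 3' UTR. It is annotated in 1 of 10 Celf4 transcripts, Celf4-208, which is classed as a target of nonsense-mediated decay. With the exon skipped, the last junction is 44 bases after the stop codon, and with the exon included it is 129 bases after. An exon junction far behind a stop codon is a known trigger of that decay. The level of the Celf4 messenger was not measured in this table. In the class of 61 to 150 nt, 43 cassette exons of the table were included more and 77, Celf4 among them, less.

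Upstream of the same 172 nt exon, the other Celf4 event lists 5 donors that join its acceptor at 25486965. The junction from the donor at 25496222, which skips the exon between, had a log2 fold of 0.88 in the authors' deposited table (p = 0.0362), or 1.84 times the mock use. The skipped exon, 25491081 to 25491224, has forms of 144 and 84 nt that differ at the donor. In the authors' deposited table the junction of the 144 nt form had a log2 fold of 0.20 (p = 0.367) and that of the 84 nt form one of -0.07 (p = 0.385). The direction over the forms was not uniform, and of the 5 junctions only the skipping one had a p under 0.05.

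All annotated choices of this Celf4 event keep the frame. Skipping removes 48 codons relative to the 144 nt form and 28 relative to the 84 nt form, and Celf4-206, which skips the exon, has 456 codons and the same stop codon as the longer transcripts. The unannotated donor at 25491093 lies 12 bases before the end of the 144 nt form and would give one of 132 nt, also a multiple of 3. Its junction had a log2 fold of -0.56 (p = 0.475) in the authors' deposited table. An unannotated donor at 25487240, whose intron is 274 bases long, had -0.35 (p = 0.246) in the authors' deposited table. With all 5 uses adding up to the whole, the skipping junction can hold between 0% and 27.9% of the event in the mock knockdown. In the knockdown the bounds are 0% and 51.2%, so the folds do not settle whether it is a minor form there.

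Beside the rest of the table these events were of ordinary size. The nearer junction was higher in 3 of the 4 two-junction events, against 42.9% of 408. The median size of the change was 1.21 on the log2 scale (range 1.05 to 1.51), against 1.36 over all 408 events (interquartile range 1.01 to 1.74), and Rbfox3 alone lay above that median. The implied differences in use, from 6.73 to 12.5 percentage points in size, stood below the table's median of 12.9. By the smallest p, Rbfox3 ranked 89 of 585 events, Rbfox1 255, Rbfox2 402, Elavl2 410 and the Celf4 events 426 and 468. The Celf4 3' UTR event lay nearest to the threshold, with p = 0.0408 in the authors' deposited table, and no event just outside it is listed. In Rbfox2 and the inner Celf4 event a single junction passed 0.05, as in 114 (64.4%) of the 177 events with 3 or more junctions.

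**Figure D4:**
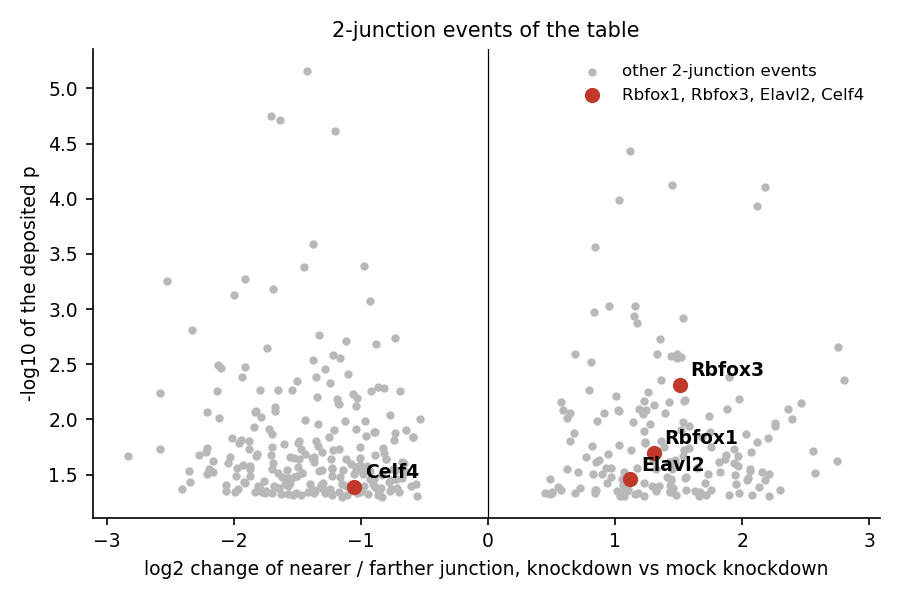
Log2 change of the ratio of nearer to farther junction, knockdown against mock knockdown (x axis), and -log10 of the deposited p (y axis) for the 408 events with 2 junctions; red points are Rbfox3, Rbfox1, Elavl2 and Celf4. All 4 lie inside the cloud of other events, Rbfox3 highest and Celf4 alone on the left.

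No exon examined held the letters of the motifs searched for, which says nothing of binding. Other motifs known for these families were not searched. The Rbfox1 93 nt, Rbfox2 40 and 43 nt, Rbfox3 79 nt, Elavl2 39 nt and Celf4 85 nt exons were searched on the transcribed strand for TGCATG and its shorter form GCATG (RBFOX), TGTGT (CELF) and TTTTT (ELAVL). Each motif had 0 matches in each exon. The Rbfox1 and Rbfox3 exons serve both junctions of their event, and the junctions of the Rbfox2 exons missed the p threshold. Only the Elavl2 and Celf4 exons are cassette exons whose own junctions had a deposited p under 0.05. In windows of the same lengths at the start of the table's cassette exons, TGCATG was found in 0.521% to 3.67%, GCATG in 2.66% to 6.42%, TGTGT in 3.65% to 13.8% and TTTTT in 3.12% to 5.50%. Introns, where RBFOX elements are best known, were not analysed here.

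Of 39 other neuronal splicing regulators and related RNA-binding proteins, 3 have an event in the table: Celf3, Fxr1 and Tial1. Celf3, the paralog closest in name to Celf4, has 2, and both moved away from the nearer junction, at 0.617 and 0.223 times the mock ratio. The latter involves an unannotated acceptor whose log2 fold was -2.11 in the authors' deposited table (p = 0.0300), the opposite direction from those of Rbfox1 and Rbfox2. In Fxr1, a paralog of the fragile X protein, the nearest of 3 junctions had a log2 fold of 0.85 (p = 0.00723) and the next one -0.43 (p = 0.0139) in the authors' deposited table. In Tial1, a U-rich RNA-binding regulator, the farthest of 3 junctions had -0.62 (p = 0.000397) and the middle one 0.83 (p = 0.00474) in the authors' deposited table. Nova1, Nova2, Ptbp1, Ptbp2, Mbnl1, Mbnl2, Srrm4, Elavl3 and Elavl4 are among the 36 with none. How many of these genes were tested is not known, so a missing event says nothing of their splicing.

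Of 14 genes with exons described as RBFOX targets, a list from general knowledge that is not complete, 3 have an event: Snap25, Nrcam and Fn1. How many of the 14 were tested is not known either. The 2-junction events of Snap25, Nrcam and Fn1 split 3 with the nearer junction higher and 2 lower, against 42.9% higher among all 408. The 2 events of Snap25, 1 in each count, list the same exon choice from its 2 sides. Nrcam, a neuronal cell adhesion molecule, had the largest of these changes, where the nearer junction gained 4.52-fold on its alternative and the authors' deposited table gives p = 7.79e-05. Another Nrcam event, of 3 junctions, lists the same farther junction, so it is not separate. In the authors' deposited table its log2 fold there was -0.29 (p = 0.000401), beside 1.64 (p = 0.000997) and 0.78 (p = 0.181) for the others. An exon of 156 nt in the same gene changed 2.66-fold in inclusion relative to skipping. In the Snap25 events, a gene for a synaptic fusion protein, the nearer junction changed 1.79-fold and 0.603-fold against the farther one. By position these are the same shift. In the authors' deposited table the junctions of 1 exon had log2 folds of 0.27 and 0.21, those of its alternative -0.57 and -0.52. The 273 nt exon of Fn1, the matrix protein fibronectin, changed 0.307-fold in inclusion relative to skipping. Whether these are the exons that RBFOX proteins bind was not examined. Levels of RBFOX protein or messenger were not measured here either.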

How the data were processed

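PolyA RNA of 5 samples was sequenced, 2 of the PQBP1 knockdown and 3 of the mock knockdown. The labels name no separate cultures, and the spread behind the authors' p-values may be technical. TopHat2 2.0.4 aligned the reads and mm10 was the build, per the submitters' processing notes. For the junction counts, the test, its filters and any pooling, the method is not given in the sources used here. Each junction carries a p-value that the authors deposited with no mention of adjustment. Per the file headers, the log2 fold is knockdown over control. It was read as a change of relative use, because in all 408 events of 2 junctions the folds have opposite signs.

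Gene names were filled down within each event and 1 was added to start and end, which turned 1179 of 1402 junctions (84.1%) into GENCODE M21 introns. For 2-junction events the change subtracts the farther junction's log2 fold from the nearer one's. Implied use solves for shares that add up to the whole in each group. The formula was run on simulated shares without noise that add up in this way. That checks the algebra only and cannot test whether the listed junctions make up all use. Cassette exons (224, each counted once) needed an annotated exon and intron fitting both junctions, the shortest exon being taken. Python 3.11.15 with pandas 2.3.3 was used. No test was made, since no sample values exist here. All junctions of the 5 genes, and every gene of both lists with an event, could be named. The genes and lists were chosen with earlier results of these data known. From the list of RBFOX targets 1 gene is not reported here, and the counts cover the other 14. Exons, positions, transcripts and sequences are those of GENCODE M21. Alternatives tried were the p threshold, annotated junctions only, each exon once, 1 junction per event, another measure of size, implied use and positions as deposited.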

Additional observations from a re-analysis of the deposited data

How the results depend on the processing

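Implied use is solved from the same folds as the log2 change, so its direction is the same by construction. As differences in implied use the 4 two-junction events were 12.5 percentage points in Rbfox3, 6.97 in Rbfox1, 6.73 in Elavl2 and -9.01 in Celf4. With a deposited p under 0.01 in place of 0.05, the events with the nearer junction higher dropped from 3 to 1 (Rbfox3), and the junctions under the threshold from 10 to 2. Counting 1 junction per event gave 6, an outcome fixed in advance because every listed event has a junction under 0.05. With annotated junctions only, Rbfox1 left the count and 2 events remained. Counting each exon once changed nothing, as each exon is listed from 1 side. By the largest absolute fold in the event, the median size was 1.10 in place of 1.21. With positions taken as deposited, 0 of the 17 junctions equalled an annotated intron, against 13 after adding 1. No paired analysis was possible because the table holds no values per sample, and for the same reason no replicate could be left out. The planned search for motifs in flanking introns, with either window length, was not run, as no genome was used, and the exon search was chosen after seeing the data, as were the bounds on implied use in events of 3 or more junctions. Depth is unknown, so the precision of folds at rare junctions, such as the unannotated ones of Rbfox1 and Rbfox2, cannot be stated.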
